A study of Mus musculus with 10 samples.

Results

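The thick ascending limb is the segment of the nephron that takes up sodium chloride from the tubular fluid without letting water follow, which dilutes the urine and keeps the medulla of the kidney concentrated. Salt enters the cell through a cotransporter in the apical membrane, potassium returns to the lumen through a channel, chloride leaves on the blood side through channels that need the subunit barttin, and cations pass between the cells through claudins. The segment is also the source of uromodulin, the most abundant protein of normal urine, and of the precursor of epidermal growth factor. Transcripts of 9 genes of this segment were examined among the 43629 genes counted in the kidney, namely Umod, Slc12a1, Kcnj1, Egf, Cldn10, Cldn16, Ptger3, Bsnd and Casr. They were chosen as genes of the segment, to see whether its transcripts moved together or singly. Earlier results of these data were known at that time, so counts of members beside all genes are descriptive. Their rows were found by matching symbols to the Ensembl identifiers of the table. All 9 were found and 8 of them passed the filter on low counts, which kept the 10055 genes with 6 or more reads in 7 or more of the 10 kidneys. Cldn16 reached 6 reads in 6 kidneys and was not tested.

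The study asked whether rilmenidine, an antihypertensive drug that acts on imidazoline receptors, changes gene expression in a mammalian tissue. The kidneys came from males of UM-HET3, a stock that segregates alleles of several inbred strains and carries no engineered allele, and every mouse was 4 months old. From 3 months of age 6 control mice were kept for 1 month on the diet Purina 5LG6 alone, and 4 rilmenidine mice on the same diet with 10 ppm of the drug. Each library was labelled as a separate kidney sample and the design text calls them biological replicates. The library method named in the labels reads the 3′ ends of polyadenylated transcripts. Each value below is a normalized CPM, that is counts per 1e6 reads after the samples had been scaled to one another, unless raw counts are named. Receptor gene CPM are the exception, being counts per 1e6 total counts without that scaling. Because 3′ end counts also depend on how well each transcript end was captured, the tests compare levels between kidneys, and the order of levels between genes is not read.

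The libraries were shallow and unequal. Total counts ran from 863605 to 2559118 in control kidneys and from 1813465 to 3232063 in rilmenidine kidneys, with medians of 1489031 and 2483263. A two-sided exact permutation test of the difference in total counts gave p = 0.0571, where 0.00476 is the smallest p that the 210 splits of 10 kidneys into 6 and 4 allow. The 3 deepest libraries, control 6, rilmenidine 3 and rilmenidine 4, were also the ones with fewer than 10 CPM in total on olfactory and vomeronasal receptor genes (8.99, 4.27 and 7.43), against 51.7 to 436 in the other 7. The nuclear RNA Malat1 stood at 1182 to 2100 CPM in 4 control kidneys and at 284 to 398 in the remaining 6. Rilmenidine 3 and 4 held the highest Umod levels, and values without them are given for the tested members and for many of the other genes and lists. As a check of the tissue, Kap of the proximal tubule had between 28005 and 170342 raw counts and Umod between 1293 and 6361, whereas the liver gene Alb had between 0 and 20. Part of the extraction text in the sample labels speaks of liver.

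No member passed the test for a change with rilmenidine. By edgeR's quasi-likelihood test, with p-values adjusted after Benjamini and Hochberg over all 10055 genes, 0 of the 8 tested members and 0 genes of the whole table (0%) passed 0.05. Before adjustment 2 members had a p-value under 0.05, Umod and Egf, both higher with the drug, beside 4.43% of all genes tested that were higher and 6.13% that were lower by this rule (10.6% together). Of the 8 tested members 7 had a log2 fold change above 0, beside 50.3% of all genes, and the median was 0.24 beside 0.00 over all genes. It was 0.077 over the 5 members that passed a stricter filter of at least 10 counts in every kidney and 0.087 in the 7 libraries with 10 or more receptor gene CPM. It fell to 0.00055, with 4 of 8 members above 0, without rilmenidine 3 and 4. The members with the highest values were Umod at 0.61 and Egf and Bsnd at 0.42 each, followed by Ptger3 at 0.40. The transport genes Slc12a1, Kcnj1 and Cldn10 had values of 0.08, 0.07 and 0.06. In a bulk sample fewer cells of a type and less RNA per cell cannot be told apart.

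**Figure D1:**
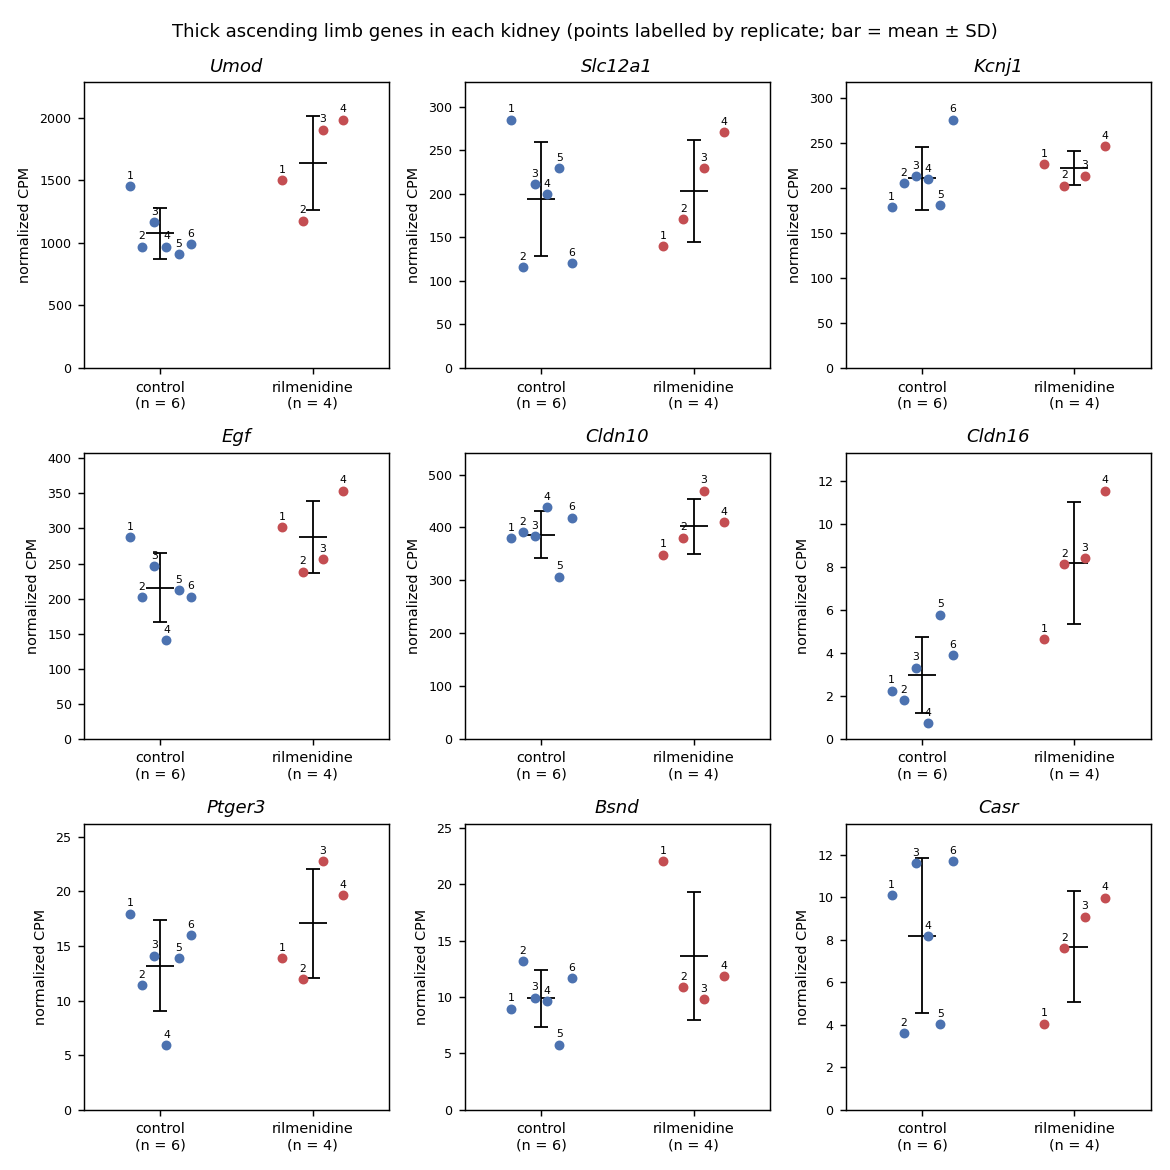
Normalized CPM (vertical axes, linear from 0) of the 9 thick ascending limb genes in each control and rilmenidine kidney. Points are kidneys labelled by replicate number and bars show the mean ± SD. For Umod, rilmenidine kidneys 1, 3 and 4 lie above all 6 control kidneys, and rilmenidine 2 lies among them. The groups overlap for each of the 9 genes.

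Umod (ENSMUSG00000030963) encodes uromodulin and is found on the minus strand of chromosome 7 (119462711 to 119479282, GRCm38, the build of all coordinates here). Its level in control kidneys was lowest at 909, had a median of 981 and was highest at 1451, in control 1, which is the shallowest library. In rilmenidine kidneys 1 to 4 it was 1501, 1178, 1906 and 1986. Thus 3 of the 4 rilmenidine kidneys exceeded every control kidney, and rilmenidine 2 lay between the highest and the next control value. The means were 1076 ± 203 (SD, n = 6) and 1643 ± 376 (SD, n = 4). The log2 fold change was 0.61 (SE 0.17, 95% interval 0.25 to 0.97) or 1.53-fold. Its p-value by edgeR was 0.00237 before and 0.244 after adjustment. In the annotation Umod overlaps another gene, as do Slc12a1, Egf, Cldn10 and Casr among the members and Wnk1, Wnk4, Oxsr1, Cldn19, Trpm6, Aqp4, Scnn1b, Slc6a6, Cryab, Plvap and Cd74 among the other genes with a fold change below, and reads of such pairs may be mixed where the counting ignored strand. Umod ranked 98 among 10055 genes by p-value. Without rilmenidine 3 and 4 the log2 fold change was 0.32 (SE 0.20), and the unadjusted p-value of the quasi-likelihood test was 0.122. These are the kidneys with the highest Umod, so a fall was fixed by the choice.

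The call of Umod depended on the filter and the test. With every gene of at least 1 count in any kidney retained, the quasi-likelihood test gave Umod an adjusted p-value of 0.0179 at a log2 fold change of 0.62, in a fit that called 0.874% of 27565 genes. In that fit the SEs of Umod, Slc12a1, Kcnj1, Egf and Cldn10 all lay between 0.15 and 0.16. In the main fit they were 0.17, 0.24, 0.13, 0.17 and 0.13. The fit with at least 1 count thus hardly separated these genes by their own spread, which limits its calls. The DESeq2 Wald test gave Umod an adjusted p-value of 0.0490, in a fit that called 0.597% of genes. Adjusted p-values in the other alternatives, edgeR's likelihood ratio test among them, lay between 0.144 and 1.00. With any single kidney left out, its log2 fold change lay between 0.51 and 0.74.

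Egf (ENSMUSG00000028017; chromosome 3, 129677565 to 129755316) encodes the membrane-bound precursor of epidermal growth factor, which the distal convoluted tubule also makes. Control kidneys ran from 140 to 287 around a median of 208. Rilmenidine kidneys 1 to 4 had 302, 238, 257 and 354. Rilmenidine 1 and 4 were above all controls, whereas rilmenidine 2 and 3 fell inside the control range. The means were 215 ± 49.2 (SD, n = 6) and 288 ± 51.7 (SD, n = 4), a log2 fold change of 0.42 (SE 0.17, adjusted p by edgeR 0.385). The unadjusted p-value of this model, 0.0230, became 0.107 without rilmenidine 4, where the log2 fold change was 0.31, and 0.131 without rilmenidine 3 and 4 together, where it was 0.34. Several annotated genes overlap Egf.

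Slc12a1 (ENSMUSG00000027202; chromosome 2, 125152505 to 125230002) encodes NKCC2, the apical sodium-potassium-chloride cotransporter that loop diuretics block. Its level was 116 in the lowest control kidney and 285 in the highest, with a median of 205. Rilmenidine kidneys 1 to 4 had 140, 171, 229 and 270. Every rilmenidine kidney was inside the control range. Controls 2 and 6 stood apart from the other 4 controls at 116 and 120.5, and both also belonged to the kidneys with low Malat1. The log2 fold change was 0.08 with a 95% interval from −0.42 to 0.58 (adjusted p by edgeR 0.942). Leaving out rilmenidine 3 and 4 turned the log2 fold change to −0.30, and log2 Malat1 as a covariate moved it to 0.73 (SE 0.22). In that fit the unadjusted p-value by edgeR was 0.00549 for Slc12a1, and 3 members (Umod, Slc12a1 and Egf) were under 0.05 beside 3.03% of all genes, but 0 genes passed after adjustment.

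Kcnj1 (ENSMUSG00000041248; chromosome 9, 32372493 to 32399197) encodes ROMK, the potassium channel that returns potassium to the lumen and that is made in the collecting duct as well. Among controls it ran from 178 to 276 around a median of 208, and control 6 held the top value. Rilmenidine kidneys 1 to 4 had 227, 203, 214 and 246. The rilmenidine values were close to one another and lay within the control range. On the log2 scale the difference was 0.07 (95% interval −0.21 to 0.36, adjusted p by edgeR 0.906). It was −0.11 with log2 library size as a covariate and 0.03 without rilmenidine 3 and 4.

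Bsnd (ENSMUSG00000025418; chromosome 4, 106483456 to 106492283) encodes barttin, the subunit that chloride channels of this segment need at the basolateral membrane, and intercalated cells express it too. It had 8 to 38 raw counts per library. The control levels were 5.78 at the lowest, 9.81 at the median and 13.2 at the highest. Rilmenidine kidneys 1 to 4 had 22.0, 10.9, 9.80 and 11.9. Of these, rilmenidine 1 was outside the control range, and without it the log2 fold change of 0.42 (SE 0.29, adjusted p by edgeR 0.639) was 0.12. It was 0.71 without rilmenidine 3 and 4. Rilmenidine 1 also had the highest summed level of the intercalated cell list, 539 against 260 to 505 in the other 9 kidneys. The part of intercalated cells in the Bsnd value was not tested.

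Cldn10 (ENSMUSG00000022132; chromosome 14, 118787908 to 118875489) encodes claudin-10, which forms a sodium-permeable path between cells in the thick ascending limb. The gene has variants with different first exons that gene counts do not separate, and some of these are made in other nephron segments. Control kidneys ran from 307 to 438, the median being 387. In rilmenidine kidneys 1 to 4 the values were 349, 381, 470 and 409. Rilmenidine 3 alone exceeded the control range. Its log2 fold change was 0.06 (95% interval −0.21 to 0.33, adjusted p by edgeR 0.925), and −0.08 without rilmenidine 3 and 4.

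Cldn16 (ENSMUSG00000038148; chromosome 16, 26463135 to 26482765) encodes claudin-16, which is needed for the uptake of magnesium and calcium between cells of this segment. It had 1 to 10 raw counts in control kidneys and 8, 15, 24 and 37 in rilmenidine kidneys 1 to 4. Scaled for depth, controls ran from 0.743 to 5.78, the median being 2.78. Rilmenidine kidneys 1 to 4 had 4.64, 8.15, 8.40 and 11.6, so 3 of them stood above all controls and rilmenidine 1 lay within the control range. With the filter lifted to at least 1 count in any kidney, the log2 fold change was 1.41 (SE 0.45) and the p-value adjusted over 27565 genes was 0.156 by edgeR. Its partner Cldn19 had 3.48, 11.4, 13.3 and 7.49 in rilmenidine kidneys 1 to 4, against 1.16 to 7.19 in controls.

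Ptger3 (ENSMUSG00000040016; chromosome 3, 157566892 to 157645888) encodes the EP3 receptor, through which prostaglandin E2 restrains salt transport. It had 8 to 65 raw counts. The control levels were 5.94, 14.0 and 18.0 at the lowest, the median and the highest. Rilmenidine kidneys 1 to 4 had 13.9, 11.9, 22.7 and 19.7. Rilmenidine 3 and 4 were above all controls, and rilmenidine 1 and 2 were below the control median. The log2 fold change of 0.40 (SE 0.27, adjusted p by edgeR 0.631) was −0.02 without rilmenidine 3 and 4, the kidneys with the highest Ptger3.

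Casr (ENSMUSG00000051980; chromosome 16, 36493696 to 36562141) encodes the calcium-sensing receptor, which lowers salt and calcium uptake when blood calcium is high. It had 6 to 32 raw counts. Controls ran from 3.60 to 11.7 with a median of 9.14, and rilmenidine kidneys 1 to 4 had 4.06, 7.60, 9.10 and 9.99. The groups covered almost the same range. The difference on the log2 scale was −0.04 with a 95% interval from −0.83 to 0.74 (adjusted p by edgeR 0.982), which includes the size of the Umod value. Without rilmenidine 3 and 4 it was −0.46.

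To show what lies at the start of the genes with the smallest p-values and of the salt transport genes that did not differ detectably, the RefSeq promoters of Umod, Egf, Slc12a1 and Cldn10 were read from build GRCm38.p6. Each stretch runs from 250 bases before to 20 bases after a transcript start and is printed 5′ to 3′ on the strand of the gene, with the 20 transcribed bases in capitals. They are chr7:119479243-119479512 (minus strand) for Umod, chr3:129755303-129755572 (minus strand) for Egf, chr2:125152350-125152619 (plus strand) for Slc12a1 and chr14:118787621-118787890 (plus strand) for the upstream of 2 starts of Cldn10.
Umod: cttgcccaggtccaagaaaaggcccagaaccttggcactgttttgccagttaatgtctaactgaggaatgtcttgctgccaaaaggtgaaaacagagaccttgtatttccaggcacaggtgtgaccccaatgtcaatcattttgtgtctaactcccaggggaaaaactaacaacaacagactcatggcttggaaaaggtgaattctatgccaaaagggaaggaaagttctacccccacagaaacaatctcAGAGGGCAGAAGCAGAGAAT
Egf: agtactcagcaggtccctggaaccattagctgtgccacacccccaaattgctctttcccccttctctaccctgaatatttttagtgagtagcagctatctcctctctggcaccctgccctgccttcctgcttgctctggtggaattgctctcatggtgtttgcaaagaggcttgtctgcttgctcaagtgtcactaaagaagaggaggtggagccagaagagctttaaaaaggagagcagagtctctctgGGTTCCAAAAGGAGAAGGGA
Slc12a1: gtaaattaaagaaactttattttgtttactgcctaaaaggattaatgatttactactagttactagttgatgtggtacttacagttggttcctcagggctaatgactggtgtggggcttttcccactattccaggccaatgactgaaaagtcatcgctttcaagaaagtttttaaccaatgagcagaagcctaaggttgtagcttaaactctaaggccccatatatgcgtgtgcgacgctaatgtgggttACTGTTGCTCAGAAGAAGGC
Cldn10: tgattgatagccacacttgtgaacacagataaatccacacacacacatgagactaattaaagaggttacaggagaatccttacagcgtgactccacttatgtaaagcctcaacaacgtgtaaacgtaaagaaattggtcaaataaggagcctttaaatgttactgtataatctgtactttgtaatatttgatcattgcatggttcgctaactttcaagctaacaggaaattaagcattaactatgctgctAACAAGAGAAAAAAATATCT
The table holds 10 windows for 8 of the members, each reaching to 50 bases after the start, and Bsnd was not matched. The letters AAGGTCA of the estrogen-related receptor site and TATAAA of the TATA box, searched on both strands, occurred in 0 of these 10 windows and in 4.72% and 13.6% of all 32851 windows. Neither motif contains the other. Esrrb, an estrogen-related receptor made in this segment, had an edgeR log2 fold change of −0.32 (SE 0.21, adjusted p 0.618).

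Whether the members moved together was examined kidney by kidney. Rilmenidine 4 was above the median of the 10 kidneys for 9 of 9 members and rilmenidine 3 for 8 of 9. Control 4 was above it for 1 member, and controls 2 and 5 for 2 members each. Controls 1, 3 and 6 and rilmenidine 1 were above it for 5 members, and rilmenidine 2 for 3. Rilmenidine 3 and 4 were the highest 2 of the 10 kidneys for Umod, Ptger3 and Cldn16, of which 2 were tested, beside 3.59% of all genes tested. Summed over the 9 members, the level was 3126 and 3320 in these kidneys, 2563 and 2209 in rilmenidine 1 and 2, and 1869 to 2622 in control kidneys. Without Umod the sums were 1062, 1031, 1220 and 1333 in rilmenidine 1 to 4, against 945 to 1171 in controls, so that rilmenidine 3 and 4 again exceeded every control kidney and rilmenidine 1 and 2 did not.

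**Figure D2:**
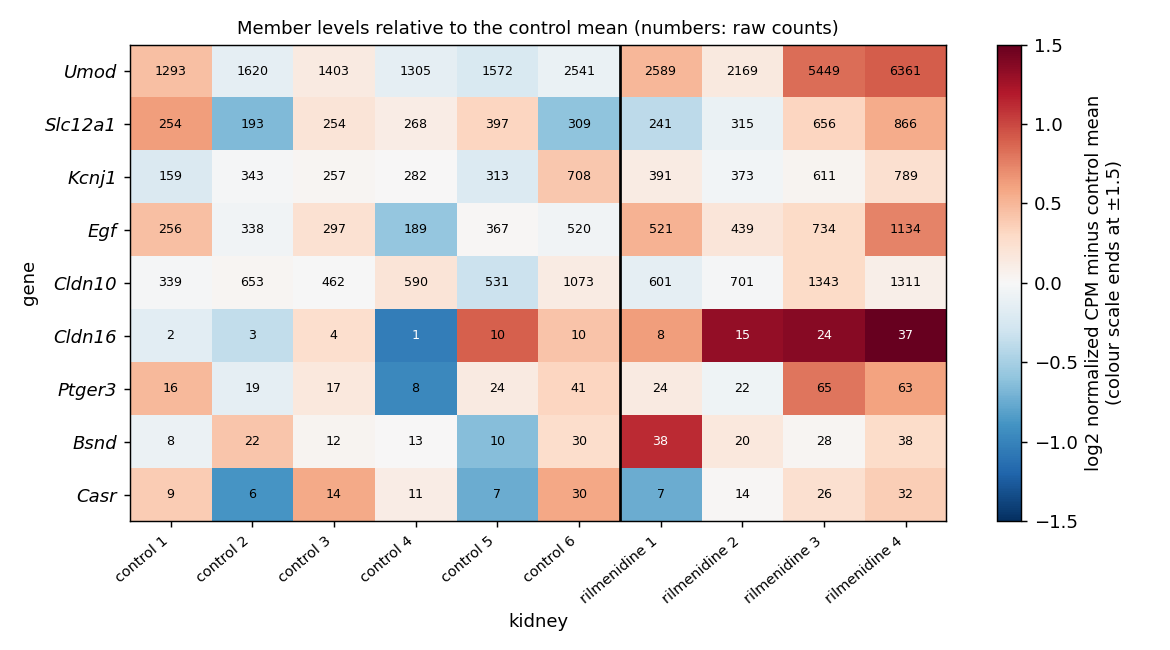
Log2 normalized CPM of each member (rows) in each kidney (columns) minus the control mean of that gene, in colour from blue (lower) to red (higher), with the raw count printed in each cell. Rilmenidine 4 is red in all 9 rows, while rilmenidine 1 is blue for Slc12a1, Cldn10 and Casr, and the last 4 rows rest on counts of 65 or fewer.

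The agreement was partial. For each member the spread between kidneys was taken as the SD of the log2 level within groups, and again after the mean deviation of the other 8 members had been subtracted in each kidney. It fell for 6 of the 9 members. For Umod it fell from 0.29 to 0.20, for Egf from 0.31 to 0.24 and for Ptger3 from 0.48 to 0.36. Slc12a1 kept nearly all of its spread, at 0.49 and 0.47, with a counting error of 0.08. For Kcnj1 and Cldn10 the spread grew, from 0.19 to 0.27 and from 0.18 to 0.27. Bsnd also grew, from 0.42 to 0.57, with a counting error of 0.35. The counting error of Cldn16, 0.73, was above its spread of 0.61. Among the 5 members with a mean of at least 100 counts alone, the spread fell for 3, to 0.17 for Umod, 0.29 for Egf and 0.46 for Slc12a1, and grew to 0.33 for Kcnj1 and 0.27 for Cldn10. These values describe 10 kidneys and were not tested.

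Umod was set against other members within each kidney, which removes any factor that multiplies both transcripts alike. Umod per Cldn10 was 2.81 ± 0.591 (SD, n = 6) in control and 4.08 ± 0.735 (SD, n = 4) in rilmenidine kidneys, and rilmenidine 1, 3 and 4, at 4.31, 4.06 and 4.85, exceeded the highest control at 3.81. Umod per Slc12a1 was 6.01 ± 1.85 (SD, n = 6) and 8.32 ± 1.72 (SD, n = 4), and rilmenidine 1 alone, at 10.7, exceeded the highest control at 8.39. Umod per Kcnj1 was 5.26 ± 1.54 (SD, n = 6) and 7.35 ± 1.40 (SD, n = 4), with 1 rilmenidine kidney above the controls. Umod per Egf was 5.11 ± 0.917 (SD, n = 6) and 5.74 ± 1.17 (SD, n = 4), and Umod per Ptger3 was 89.9 ± 37.1 (SD, n = 6) and 97.8 ± 10.1 (SD, n = 4). Each ratio overlapped between the groups. Whether the change of Umod differs from that of another member was not tested.

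**Figure D3:**
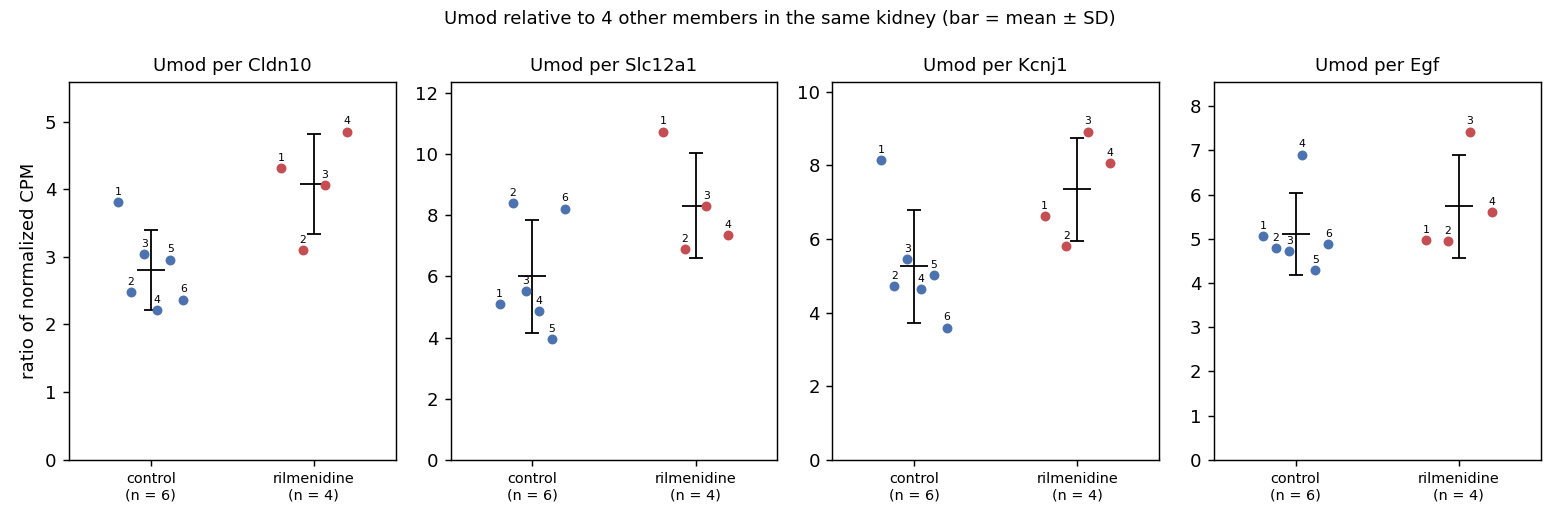
Ratio of the normalized CPM of Umod to that of Cldn10, Slc12a1, Kcnj1 or Egf in each kidney (vertical axes, linear from 0), with points labelled by replicate number and bars for the mean ± SD. Umod per Cldn10 lies above the highest control, 3.81, in 3 of 4 rilmenidine kidneys, and Umod per Egf lies above its highest control, 6.90, in 1 of 4.

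A wider list of 37 genes made in this segment had values in both directions, and 29 of its genes passed the filter. Of these, 17 had a log2 fold change above 0 and the median was 0.15, beside 0.00 over all genes. The edgeR test called 0 of them at an adjusted p-value under 0.05, and 3 higher and 3 lower genes had an unadjusted p-value under 0.05, beside 4.43% and 6.13% of all 10055 genes. Some other fits called Irx1 and Wfdc15b of this list, both higher with the drug. Irx1 passed 0.05 after adjustment with every gene of at least 1 count (adjusted p by edgeR 2.7e-08), with DESeq2 (0.0315), with edgeR's likelihood ratio test (0.0273, in a fit that called 0.438% of genes) and without rilmenidine 1 (0.0217 by edgeR, where 0.0589% of genes were called). Wfdc15b passed it with at least 1 count (0.0142 by edgeR) and with DESeq2 (0.0441). In the fit with at least 1 count the SE of Irx1 was 0.22, against 0.35 in the main fit, and the limit named for Umod applies. Among genes that were tested, the groups did not overlap for 1, Kcnj16, beside 1.67% of all genes in either direction (0.796% with rilmenidine higher).

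The genes with an unadjusted p-value under 0.05 and higher levels were segment markers and a transcription factor. Irx1, an Iroquois homeobox factor, ran from 9.75 to 20.7 in control kidneys and was 12.8, 32.0, 72.1 and 41.5 in rilmenidine kidneys 1 to 4. Rilmenidine 2, 3 and 4 were above all controls and rilmenidine 1 was among them. The group difference was 1.44 on the log2 scale (SE 0.35, adjusted p by edgeR 0.211). Wfdc15b, a small secreted protein with a whey acidic protein domain, had 317, 232, 384 and 282 in rilmenidine kidneys 1 to 4, against 162 to 263 in controls, a log2 fold change of 0.60 (SE 0.15, adjusted p by edgeR 0.225). Ckb, the brain-type creatine kinase, was 0.56 higher on the log2 scale (SE 0.21), with 53.2 and 57.5 in rilmenidine 3 and 4 against 26.0 to 40.1 in controls and 30.2 and 31.0 in rilmenidine 1 and 2. Without rilmenidine 3 and 4 these log2 fold changes were 0.59, 0.46 and 0.05.

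Those with lower levels belonged to salt transport and its kinases. Kcnj16, a subunit of the basolateral potassium channel shared with the distal convoluted tubule, ran from 576 to 797 in control kidneys and was 488, 487, 543 and 488 in rilmenidine kidneys 1 to 4, so that the groups did not overlap. Its log2 fold change was −0.38 (SE 0.13, adjusted p by edgeR 0.313), and −0.42 without rilmenidine 3 and 4. The kinase genes Wnk1 and Wnk4, which regulate the cotransporters of the distal nephron, had log2 fold changes of −0.36 and −0.34 (SEs 0.15 and 0.15), and of −0.40 and −0.25 without rilmenidine 3 and 4. Their targets Stk39 (SPAK) and Oxsr1, the kinases that phosphorylate NKCC2, had values of −0.15 and −0.01. Over the 13 genes of salt transport and its kinases 6 were above 0 and the median was −0.01, and over 13 tested markers and transcription factors 10 were above 0 and the median was 0.24. The order of these medians turned without rilmenidine 3 and 4 (0.13 and 0.037) and in the 7 libraries with 10 or more receptor gene CPM (0.15 and 0.030), and their difference was not tested. Of the 3 claudins on the wider list, Cldn19 alone was tested, at 0.81 (SE 0.41, and 0.54 without rilmenidine 3 and 4), while Cldn14 had at most 1 raw count and Cldn3 at most 5.

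**Figure D4:**
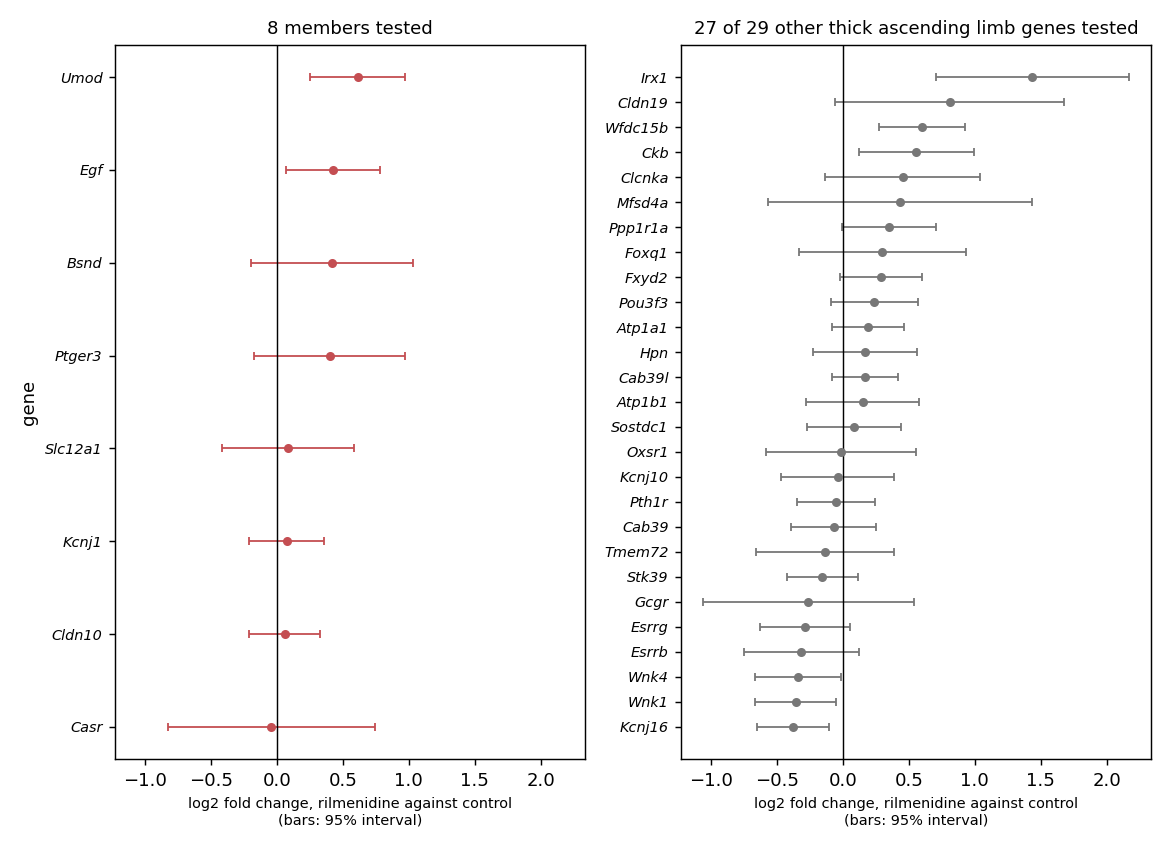
Log2 fold change of rilmenidine against control (horizontal axes) for the 8 tested members and 27 of the 29 tested genes of the wider list, with bars for the 95% interval. Umod and Egf are the members whose interval lies above 0, and Irx1, at 1.44, is the wider-list gene with the largest value.

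Markers of other segments were read in the same kidneys. Principal cells of the collecting duct had 6 of 7 tested genes above 0 (median 0.16), where 50.3% of all genes were, and 3 were higher with an unadjusted p-value under 0.05, beside 4.43% of all genes. Their summed level was 451 and 416 in rilmenidine 3 and 4, 314 and 342 in rilmenidine 1 and 2, and 219 to 326 in controls. Leaving out rilmenidine 3 and 4, there were again 6 of 7 above 0, with a median of 0.26, but 0 with an unadjusted p-value under 0.05 by edgeR. In the 7 libraries with 10 or more receptor gene CPM, which lack control 6 as well, 6 of 7 were above 0, 2 were higher with an unadjusted p-value under 0.05, and the median was 0.40. With Aqp4 left out of the sum, a choice made after seeing the data, the level was 303, 310.1, 262 and 319 in rilmenidine 1 to 4, against 206 to 311 in controls, so that rilmenidine 4 alone exceeded the controls. The water channel gene Aqp2 was 81.2, 99.4, 122 and 104 in rilmenidine kidneys 1 to 4, against 52.6 to 79.7 in controls, a log2 fold change of 0.58 that was 0.40 without rilmenidine 3 and 4. Aqp4, another water channel gene, was 11.0, 32.0, 189 and 97.7, against 12.7 to 27.4, and its log2 fold change of 2.12 was 0.15 without rilmenidine 3 and 4. Aqp4 was called after adjustment with at least 1 count, by the likelihood ratio test and without rilmenidine 1. Its SE with at least 1 count was 0.19, against 0.51 in the main fit. Aqp3 had a log2 fold change of 0.34 (0.37 without these kidneys), and the sodium channel subunits Scnn1b and Scnn1g and the enzyme gene Hsd11b2 had −0.34, 0.11 and 0.06. Whether the share of principal cells differed between the kidneys was not tested.

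In the list of the distal convoluted tubule 1 of 5 tested genes was above 0, beside 50.3% of all genes, and the median was −0.35. Of these genes 2, Slc12a3 and Trpm6, were lower with an unadjusted p-value under 0.05 by edgeR, beside 6.13% of all genes. In the 7 libraries with 10 or more receptor gene CPM 2 of 5 were above 0, the median was −0.069 and 1 was lower by this rule, as was 1 without rilmenidine 3 and 4. Calb1, a calcium-binding protein, had a log2 fold change of −0.29 (−0.15 without rilmenidine 3 and 4), and Slc12a3, the thiazide-sensitive cotransporter, was 94.5, 98.3, 52.1 and 70.9 in rilmenidine kidneys 1 to 4, against 87.5 to 149 in controls. Its log2 fold change of −0.55 was −0.25 without rilmenidine 3 and 4. The 2 lowest Slc12a3 values were those of rilmenidine 3 and 4. The magnesium channel gene Trpm6 was 3.48, 3.80, 5.95 and 5.62, against 7.41 to 16.8, with a log2 fold change of −1.01 (SE 0.33, adjusted p by edgeR 0.296) that was −1.41 without rilmenidine 3 and 4. The summed level of the list was 1014, 786, 602 and 775 in rilmenidine kidneys 1 to 4, and 769 to 1274 in controls. The intercalated cell list, which holds the anion exchanger gene Slc26a4, had 2 of 7 genes above 0 and summed to 539, 364, 260 and 334, against 339 to 505. This turned in the 7 libraries with more receptor gene reads, where 6 of 7 were above 0, 3 of them with an unadjusted p-value under 0.05 and higher (10.6% of all genes there, in either direction), and the median was 0.090 in place of −0.20. Without rilmenidine 3 and 4 it was 4 of 7, with a median of 0.068.

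Of the other lists, several were sparse. The proximal tubule had 5 of 10 genes above 0 with a median of 0.04, and Kap had a log2 fold change of 0.26. In the list of medullary osmolyte genes Slc6a6, the taurine transporter, was at −0.03 and Cryab, a small heat shock protein of the medulla, at 0.94 (SE 0.17, adjusted p by edgeR 0.174, and 0.66 without rilmenidine 3 and 4). Cryab was 70.2, 108, 112 and 139.6 in rilmenidine kidneys 1 to 4, all above the control range of 46.0 to 67.1. Cryab was called after adjustment with at least 1 count, with DESeq2, by the likelihood ratio test, without rilmenidine 1, without control 2 (a fit that called 0.325% of genes) and without control 6 (0.365%). Of this list Slc6a12 had 0 counts in all kidneys and Slc14a2 and Akr1b3 had at most 4, so that only 3 of 6 genes were tested. Averaged over these 3 genes, log2 levels were highest in rilmenidine 3 and 4, at 0.43 and 0.45 above the control mean. The same held for the wider list and its markers and transcription factors, but not for its salt transport genes. Podocytes (Podxl, 0.12), endothelium (Plvap, −0.11), immune cells (Cd74, 0.20) and blood (Hbb-bs, 0.10) had medians of −0.21, −0.09, 0.29 and 0.10, and 1 of 4, 3 of 7, 5 of 5 and 2 of 3 tested genes above 0. With 1 kidney left out these medians ran from −0.32 (control 3) to −0.00011 (rilmenidine 4), from −0.17 (control 3) to −0.0056 (control 2), from 0.16 (rilmenidine 3) to 0.55 (control 2) and from −0.084 (control 3) to 0.79 (control 2). With log2 library size as a covariate 0 of 3 blood, 3 of 5 immune and 1 of 7 endothelial genes were above 0. Log2 Malat1 as a covariate gave the same counts. Over the 20 alternatives the lowest median was −0.68 for blood and 0.013 for immune cells. In the fit without control 2, 2 of 5 immune and 2 of 3 blood genes were higher with an unadjusted p-value under 0.05 by edgeR, beside 13.5% of all genes in either direction, against 0 with all kidneys. The macula densa genes Nos1 and Ptgs2 had at most 10 raw counts. Liver genes were sparse, and Alb had a log2 fold change of 0.27. The part of tissue composition in the levels of Umod and the other members was not tested. Leaving out the 3 libraries with fewer than 10 receptor gene CPM, and so rilmenidine 3 and 4, gave log2 fold changes of 0.30 for Umod, 0.32 for Egf and −0.41 for Slc12a1, and 0 of 8 members with an unadjusted p-value under 0.05 beside 10.6% of 9796 genes. Without rilmenidine 3 and 4 alone it was 0 of 8 beside 8.29% of 9717 genes.

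**Figure D5:**
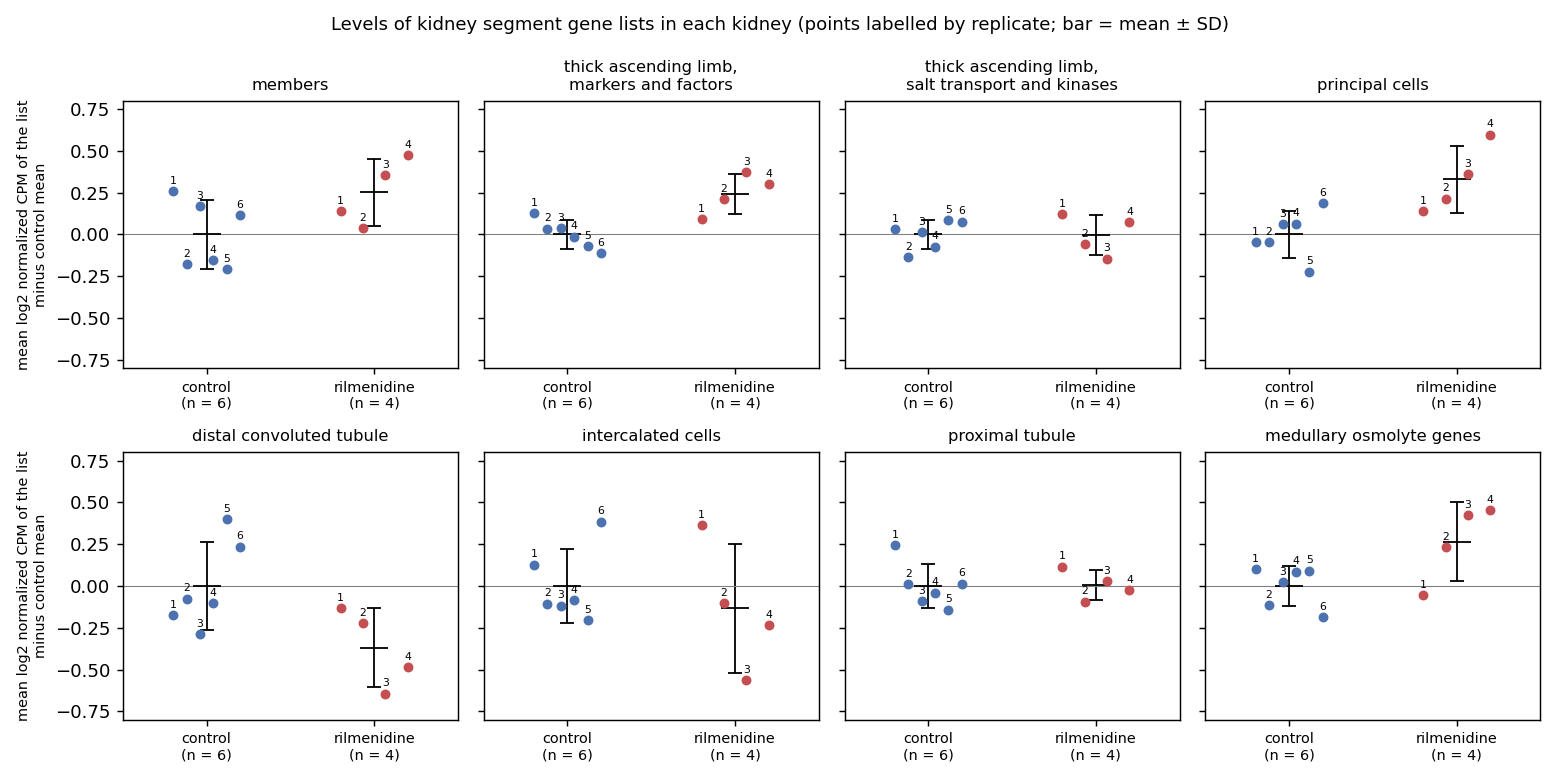
Mean log2 normalized CPM of the tested genes of each list in each kidney, minus the control mean (vertical axes), with points labelled by replicate number and bars for the mean ± SD. Rilmenidine 3 and 4 are the highest 2 kidneys for the members and for principal cells and the lowest 2 for the distal convoluted tubule and intercalated cells.

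The genes with the pattern most like that of the members were on none of the segment lists. After the group means had been removed, the 10 genes with the highest Pearson r to the mean log2 level of the 8 tested members, out of 7726 genes with a mean of at least 20 raw counts, were Tecpr1, Ipo9, Rpn1, Slc35a1, Vps35, Crym, Ssr1, Prkacb, Hspa4 and Hspd1. Their r ran from 0.89 to 0.95 over 10 kidneys, which is a description of these kidneys, and each gene shares library and scaling with the members. Of the wider list, Wfdc15b stood at rank 142 (r = 0.71).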

How the data were processed

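RNA-seq of 10 mouse kidneys was analysed, 6 control and 4 rilmenidine. The authors deposited raw read counts per Ensembl gene, 1 column per kidney. The submitters' processing notes name bcl2fastq 1.8.4, Trimmomatic 0.32, STAR 2.5.2b, featureCounts 1.5 and the build mm10. How molecular identifiers and strand were treated is not given in the sources used here, so intervals may not reflect independent molecules. Of 43629 listed identifiers, 42462 matched the GENCODE annotation used for symbols and coordinates. The study's text gives another number of control kidneys than the 6 analysed here.

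The filter kept 10055 genes, those with 6 or more reads in 7 or more kidneys, as in the study. Counts were scaled with RLE factors and tested with edgeR 4.0.16 (quasi-likelihood F test, group as the only term, R 4.3.3) with Benjamini-Hochberg adjustment at 0.05. Log2 levels used a prior count of 2. DESeq2 1.42.0, TMM scaling, other filters, covariates and left-out kidneys served as alternatives. On simulated data with 200 of 9813 genes changed by 1.5 on the log2 scale, 85.5% were recovered for rilmenidine against control, with 8 false calls. That change is larger than the value of any tested member, so this says nothing of the power to detect theirs. Named genes were the 9 members, wider-list genes with an unadjusted p-value under 0.05 or the highest or lowest fold change, the gene with the highest mean CPM and up to 3 genes with an unadjusted p-value under 0.05 of each other list, and the 10 genes most like the members. Esrrb, Stk39, Oxsr1, Scnn1b, Scnn1g, Hsd11b2, the claudins and genes near 0 were added after their values were seen. Members and lists were chosen with earlier results of these data known. Some results on genes of the wider list are not reported here, although list counts include them. RefSeq promoters were those of GRCm38.p6. Figures used matplotlib 3.10.9.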

Additional observations from a re-analysis of the deposited data

Results flagged for a closer look

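In 7 of 56 sets of values from 1 group, 1 kidney stood apart from the rest by Dixon's criterion, which chance meets in about 1 in 20. Kcnj1 was 276 CPM in control 6 and 178 to 213 in the other controls. Bsnd was 22.0 CPM in rilmenidine 1 and 9.80 to 11.9 in the other rilmenidine kidneys. The summed level of the paracellular claudins outside the 9 members was 1.74 CPM in control 5, against 5.61 to 7.19 in the other controls. Endothelial genes summed to 221 CPM in control 3, against 341 to 390. Control 2 stood apart in 3 lists, with 200.1 CPM on immune cell genes (69.7 to 103 in the other controls), 8091 CPM on globin genes (900.4 to 2922) and 14.4 CPM on liver genes (0 to 4.46).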

How the results depend on the processing

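The number of genes called rose from 0 to 241 with every gene of at least 1 count, 60 with DESeq2, 44 with edgeR's likelihood ratio test and 3 with a replicate block, and was 0 to 37 with 1 kidney left out (33 without control 2, 37 without control 6, 6 without rilmenidine 1). Of the members 1, Umod, was called with at least 1 count and with DESeq2. Of the wider list Irx1 and Wfdc15b were called in these 2 fits, and Irx1 also by the likelihood ratio test and without rilmenidine 1. Calls of the fit with at least 1 count carry the limit given for Umod, nearly equal SEs for genes of unlike spread. Members with an unadjusted p-value under 0.05 numbered 2 in the main fit, beside 10.6% of all genes tested in either direction. They numbered 3 with every gene of at least 1 count (Umod, Egf, Cldn16), beside 7.38% of genes. With Malat1 as a covariate they also numbered 3 (Umod, Slc12a1, Egf), beside 3.03%. The replicate block gave 1, beside 9.12%. There were 0 in the 7 libraries that had 10 or more CPM on receptor genes, beside 10.6%. There were also 0 without rilmenidine 3 and 4 (an alternative chosen after seeing the data), beside 8.29%. With 1 kidney left out there were 1 to 3, beside 7.29% to 14.4% of genes. Where they numbered 3, without control 1, 2, 3 or 4, the added member was Cldn16, which passed the filter only then. Cldn16 had 6 or more reads in every rilmenidine kidney but, among controls, only in control 5 and control 6. It thus passed through the group where it is higher, and that count is no support. Without rilmenidine 3 and 4 the median log2 fold change was 0.00055 for the members, 0.037 for the wider list, 0.13 for salt transport and 0.037 for the markers and factors. In the 7 libraries it was 0.030, 0.15 and 0.030 for the last 3, −0.085 for the proximal tubule, −0.069 for the distal convoluted tubule, 0.40 for principal cells and 0.20 for podocytes. For intercalated cells it was 0.090 in the 7 libraries and 0.068 without rilmenidine 3 and 4, against −0.20. For the members it was 0.077 with at least 10 counts in every kidney. With the replicate block it was 0.11 for salt transport. With Malat1 as a covariate it was 0.084 for the wider list and 0.36 for osmolyte genes, the latter 0.16 with library size. With 1 kidney left out it ran from 0.079 to 0.17 for the wider list and from −0.076 to 0.15 for salt transport.

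Direction turned for Kcnj1 (−0.11 with library size, −0.12 with Malat1), for Cldn10 (−0.032 and −0.044 with these, −0.059 in the 7 libraries, −0.081 without rilmenidine 3 and 4, −0.026 to 0.12 with 1 kidney left out), for Slc12a1 (−0.41 in the 7 libraries, −0.30 without rilmenidine 3 and 4, −0.088 to 0.22 with 1 left out), for Ptger3 (−0.025 without rilmenidine 3 and 4) and for Casr (−0.20 to 0.14 with 1 left out). Umod and Egf were above 0 in all 20 alternatives, from 0.30 to 0.74 and from 0.31 to 0.53. The cause of these shifts was not tested. Whether replicate numbers pair the samples is not settled. Deviations of same-numbered kidneys correlated at 0.076, 0.077, −0.077 and −0.0070 across genes. By chi-square per degree of freedom between counts, rilmenidine 1 was closest to control 1 (5.99) and rilmenidine 2 to control 2 (6.26). Rilmenidine 3 and 4 were closer to control 6 (8.87 and 7.09) than to controls 3 and 4 (26.7 and 11.6). This measure also rises with depth, and control 1 is the shallowest library. Depth limits Cldn16, Bsnd, Casr and Ptger3, with at most 65 counts a kidney.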
